A study of Mus musculus with 14 samples.

Results

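The genes examined here encode 7 transcription factors that are linked to stem-like and memory potential in T cells: Tcf7 (the protein TCF-1), Lef1, Myb, Bach2, Satb1, Foxo1 and Foxp1. They were chosen by name, and all 7 were found in every library, among the 15319 genes listed for the tumor-infiltrating lymphocytes, 19825 listed for the Prdm1 experiment and 15216 listed for the Bcl6 experiment. All 7 also passed the minimum of a mean of 1 FPKM (fragments scaled to gene length and library size) in each of the 3 experiments.

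TCF-1 and LEF-1 are closely related DNA-binding proteins that work with beta-catenin as an activating partner and with TLE proteins as repressing partners. In CD8+ T cells that meet antigen for a long time, in chronic infection or in tumors, TCF-1 is known as a mark of the cells that keep the capacity to renew, and it is lost in terminally exhausted cells, which carry TIM-3. MYB is known from blood progenitors and stem-like T cells, BACH2 is a repressor that restrains effector differentiation, SATB1 organises chromatin in developing T cells, FOXO1 switches on homing and survival genes unless AKT keeps it out of the nucleus, and FOXP1 holds naive T cells in quiescence. BCL6 and Blimp-1 (the product of Prdm1) are repressors with opposed roles in lymphocytes.

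RNA was sequenced from mouse CD8+ T cells that had entered E.G7 tumors, a lymphoma line derived from EL4 that expresses ovalbumin. In the first experiment Bcl6-RFP reporter mice carried tumors under the skin, and Bcl6+, DN and TIM-3+ CD8+ tumor-infiltrating lymphocytes (TILs) were sorted 21 days after inoculation. What DN stands for is not written out in the labels. The remaining experiments used OT-I cells, whose transgenic receptor recognises ovalbumin; they were transferred and sorted from E.G7 tumors about 8 days later: Prdm1-overexpressing cells with Control (Prdm1neg) cells in one, and Bcl6-overexpressing cells with Control (Bcl6neg) cells in the other. Each of the 7 groups had 2 libraries. The overexpressing and control cells were transferred together. The labels give neither the vector of the control cells nor the age of the mice. They do not say that the replicates came from separate animals, so p-values measure only the spread between these samples, which may be technical. Cells of each group are a sorted bulk sample, in which fewer cells of a type and less RNA per cell cannot be told apart.

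The libraries held between 18309162 and 22322079 counts. Bcl6, Prdm1 and Havcr2, which encodes TIM-3, followed the labels in the groups named for them. Bcl6 was at 404.9 to 426.1 CPM (counts relative to library size, scaled by the trimmed mean of M values) in Bcl6+ TILs. It was at 90.17 to 94.23 in DN and 14.75 to 18.12 in TIM-3+ TILs. Prdm1 was at 155.4 to 192.8 CPM in overexpressing cells against 89.38 and 109 in their controls. Bcl6 also differed in that experiment, at 19.63 and 20.42 CPM in Prdm1-overexpressing cells against 7.681 and 8.833 in controls. Prdm1 was at 32.57 and 41.27 CPM in Bcl6-overexpressing cells against 99.21 and 90.3 in controls. Of 5 markers of CD8 T cells all were present in each group, with summed levels from 1518 to 7663 CPM. Markers of other cells also differed between groups. The 8 macrophage and monocyte markers summed to 229.6 to 263.9 CPM in Bcl6+, 146 to 146.4 in DN and 50.76 to 68.59 in TIM-3+ TILs. Their sums were 539.2 to 625.3 CPM in Bcl6-overexpressing cells against 149 to 151.5 in the controls, and 175 to 306.7 in Prdm1-overexpressing cells against 426.2 to 478.6. Markers of thymocytes and T lymphoma, of which 5 of 6 were listed in TILs, summed to 36.26 to 44.23 CPM in Bcl6+, 44.17 to 46.02 in DN and 5.423 to 9.596 in TIM-3+ TILs, with Rag2 at 0 in the DN libraries. B cell markers, 7 of 8 listed, summed to 23.15 to 25.49, 8.01 to 11.82 and 1.072 to 1.27 CPM in the same order, with Cd79b at 0 in TIM-3+ TILs. The part of these cells in the results below was not tested.

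In the mm10 build and the GENCODE M21 annotation all 7 are protein-coding genes. Tcf7 lies at chr11:52252371-52283014 on the minus strand and Lef1 at chr3:131110471-131224356 on the plus strand. Myb lies at chr10:21124935-21160984 (minus), Bach2 at chr4:32238804-32586108 (plus) and Satb1 at chr17:51736187-51833290 (minus). Foxo1 lies at chr3:52268336-52353221 (plus) and Foxp1, the longest at 597.4 kb, at chr6:98925338-99522721 (minus). Antisense genes share exonic bases with Lef1 (Gm43352, 1208 bases), Myb (Gm26577, 559 bases), Bach2 (Bach2os, 537 bases) and Foxo1 (Gm20402, 674 bases). Exonic bases are also shared by Satb1 with Gm36931 (same strand, 156 bases) and Gm6934 (opposite strand, 128 bases). Foxp1 shares them with Gm20696 (300 bases) and Gm49348 (135 bases), both on the same strand. Whether counting used the strand is not given in the sources used here, so reads of opposite-strand pairs may be shared. Reads of same-strand pairs may be shared in either case.

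To show what the stretches before the genes' start sites hold, the 250 bases before each RefSeq start site (build GRCm38.p6) were searched on both strands for 6 short motifs: CTTTGA (the core bound by TCF-1 and LEF-1), TGTTTAC (forkhead proteins), TAACNG (MYB), TGANTCA (BACH and AP-1 proteins), TTCCNNGAA (BCL6) and GNGAAAG (Blimp-1). All 7 genes matched the RefSeq table, with 17 windows, some of which overlap or lie inside the gene. A window before a Tcf7 start appears to hold coding sequence of the long TCF-1 form, so the Tcf7 windows are not printed. Of 32851 windows of that length in the table, 13.8% held the TCF/LEF motif, 3.17% the forkhead, 19.8% the MYB, 6.75% the BACH and AP-1, 4.06% the BCL6 and 19.4% the Blimp-1 motif. No window of the 7 genes held the forkhead, the BACH and AP-1 or the BCL6 letters. The windows below were picked because each holds a pair of matches, which stand in capitals. In the Lef1 window, chr3:131156044-131156293 (plus strand), which lies in an intron before an internal start, both are the TCF/LEF core on the other strand, at 180 and 120 bases before the start. In the Bach2 window, chr4:32417185-32417434 (plus), also inside the gene, the capitals mark a TCF/LEF match 93 bases and a Blimp-1 match 18 bases before the start. In the Foxo1 window, chr3:52268087-52268336 (plus), they mark a MYB match 170 bases and a Blimp-1 match 137 bases before the start. No printed match overlaps another. A match shows letters only, not a site in use.
Lef1: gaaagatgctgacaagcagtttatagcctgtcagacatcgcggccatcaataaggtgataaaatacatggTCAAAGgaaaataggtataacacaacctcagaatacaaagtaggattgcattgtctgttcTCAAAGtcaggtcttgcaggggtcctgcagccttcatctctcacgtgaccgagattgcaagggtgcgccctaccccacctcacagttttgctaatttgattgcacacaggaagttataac
Bach2: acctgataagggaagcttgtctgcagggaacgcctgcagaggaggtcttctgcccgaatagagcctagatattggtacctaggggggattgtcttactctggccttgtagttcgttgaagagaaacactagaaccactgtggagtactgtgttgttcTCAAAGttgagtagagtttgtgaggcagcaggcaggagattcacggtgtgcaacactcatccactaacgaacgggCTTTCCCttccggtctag
Foxo1: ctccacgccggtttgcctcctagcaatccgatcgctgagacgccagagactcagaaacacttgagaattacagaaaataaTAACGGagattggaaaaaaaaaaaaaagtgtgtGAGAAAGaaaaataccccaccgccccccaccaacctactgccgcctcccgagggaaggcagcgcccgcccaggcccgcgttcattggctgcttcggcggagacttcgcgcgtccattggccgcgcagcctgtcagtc

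Per gene length, Tcf7 was the most abundant of the 7 transcripts in 12 of the 14 libraries, the exceptions being both Prdm1-overexpressing libraries, where Foxp1 led. In Bcl6+ TILs Tcf7 stood at 340.7 and 309.1 FPKM, which placed it at rank 76 and 99 of all listed genes. Foxp1 followed at 19.75 ± 0.353 FPKM (SD, n = 2), Bach2 at 12.29 ± 1.54, Lef1 at 8.01 ± 0.73, Myb at 7.696 ± 0.0794, Foxo1 at 3.63 ± 0.791 and Satb1 at 2.884 ± 0.2. The span from the most to the least abundant of the 7 was 124-fold and 102-fold in the Bcl6+ libraries. It was 11.1-fold and 14-fold in TIM-3+ TILs, where Tcf7 ranked 3763 and 3010 among all listed genes. In the OT-I cells the span ran from 5.21-fold, in a Prdm1-overexpressing library, to 14.4-fold, in a Bcl6-overexpressing library.

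The TIL experiment asked how Bcl6+ cells differ from the TIM-3+ and the DN cells sorted from E.G7 tumors. All 7 genes were higher in Bcl6+ than in TIM-3+ TILs (edgeR quasi-likelihood test, Benjamini-Hochberg adjusted p at most 0.05), where 38.6% of the 9748 genes tested were called in either direction and 19.1% were called higher. The median change of the 7 was 1.91 on the log2 scale, against 0.0113 over all genes tested. DN cells did not pass the test against Bcl6+ cells for Lef1, Satb1, Foxo1 and Foxp1, and stood between the other groups for Tcf7, Myb and Bach2.

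**Figure D1:**
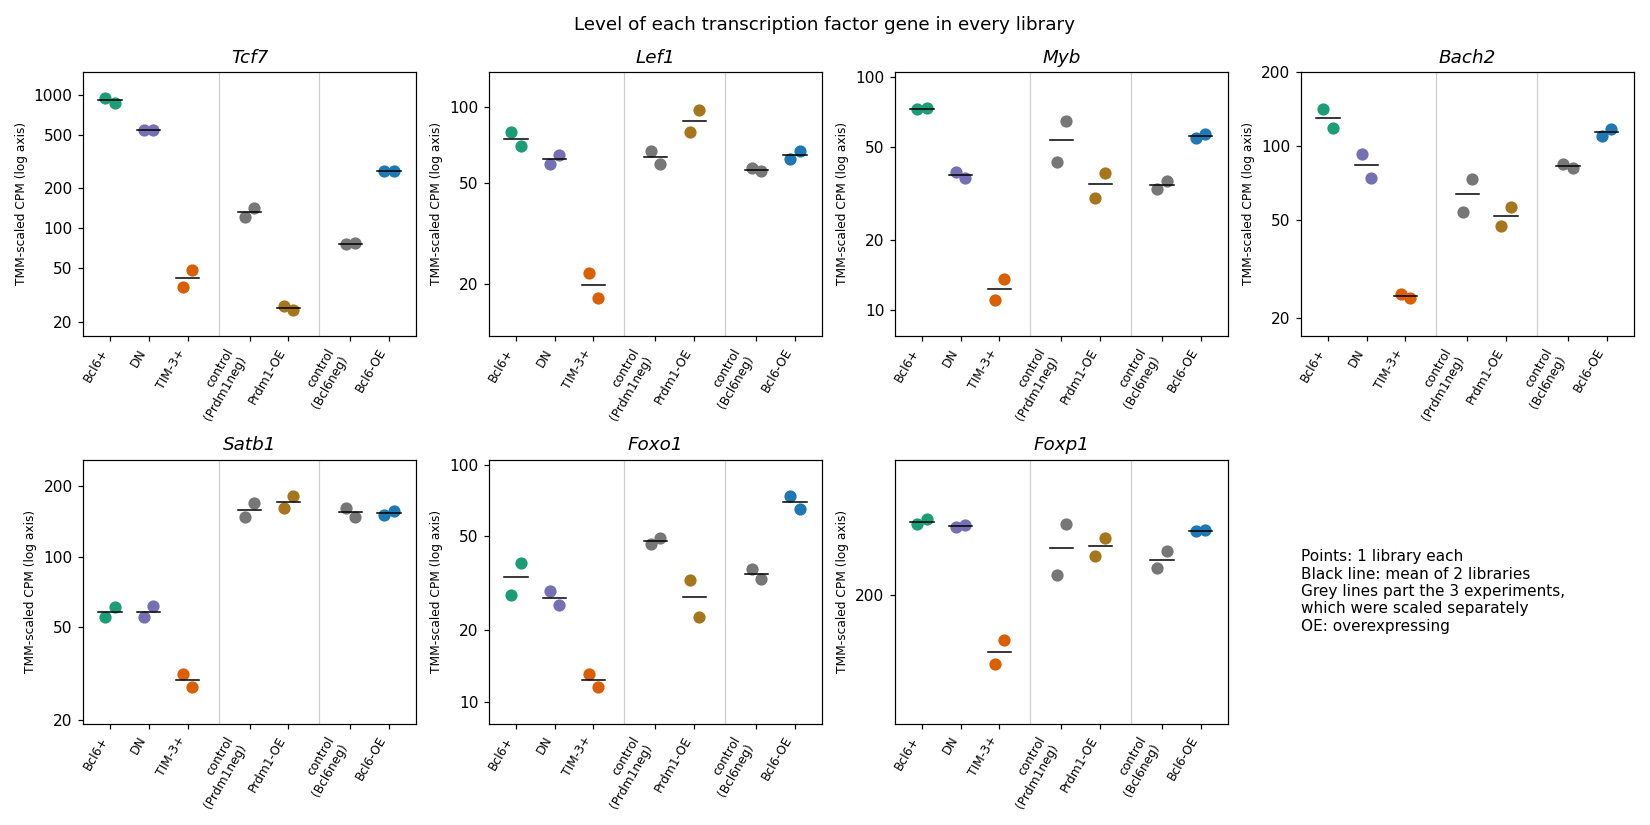
Level of each of the 7 genes in every library, in CPM scaled by the trimmed mean of M values on a log axis; points are libraries, black lines are means of 2, and grey lines part the experiments. The experiments were scaled separately. Within the TILs Tcf7 runs from 951.4 CPM in a Bcl6+ library to 36 CPM in a TIM-3+ library, while Satb1 stays between 27.67 and 61.63 CPM.

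Tcf7 spanned the widest range. Its level was 951.4 and 861.4 CPM in Bcl6+, 547.9 and 548.5 in DN and 36 and 48.86 in TIM-3+ TILs. No groups overlapped, and each step in that order passed the test. Bcl6+ TILs had 21.4-fold more Tcf7 than TIM-3+ TILs (log2 fold change 4.42, SE 0.117, adjusted p = 3.8e-12), the rank 65 highest change of all genes tested. Against DN TILs the difference was 1.65-fold (log2 0.73, SE 0.0998, adjusted p = 0.000191). TIM-3+ cells were 12.9-fold below DN cells (log2 -3.69, SE 0.114, adjusted p = 7.65e-11).

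Lef1, the close relative of Tcf7, separated the TIM-3+ cells but not the other groups. It was at 79.72 and 69.91 CPM in Bcl6+, 59.52 and 64.78 in DN and 22.03 and 17.68 in TIM-3+ TILs. The TIM-3+ libraries stood apart below all others. Bcl6+ exceeded TIM-3+ TILs 3.77-fold (log2 1.91, SE 0.165, adjusted p = 5.69e-07), and TIM-3+ was below DN by a log2 change of -1.65 (SE 0.164, adjusted p = 4.94e-06). The Bcl6+ and DN values did not pass the test against each other (log2 0.27, SE 0.156, adjusted p = 0.32).

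Myb and Bach2 were graded across the TIL groups in the manner of Tcf7. Myb was at 72.61 and 73.51 CPM in Bcl6+, 39.22 and 36.9 in DN and 11.09 and 13.54 in TIM-3+ TILs. Bach2 was at 141.5 and 118.2, 92.81 and 74.41, and 25.06 and 24.02 CPM in the same order. For both genes every library of a group lay above every library of the next. Bcl6+ TILs exceeded TIM-3+ TILs by a log2 change of 2.57 for Myb (SE 0.176, adjusted p = 5.62e-08) and of 2.40 for Bach2 (SE 0.152, adjusted p = 2.54e-08). They exceeded DN TILs by 0.94 for Myb (SE 0.164, adjusted p = 0.0013) and by 0.63 for Bach2 (SE 0.142, adjusted p = 0.00755). In all, 3 of the 7 genes, Tcf7, Myb and Bach2, were called higher in Bcl6+ than in DN TILs, where 14.2% of genes tested were called and 6.49% were called higher. The Bach2 call was lost without Bcl6+ replicate 1 (adjusted p = 0.0723), without DN replicate 2 (adjusted p = 0.135) and with limma on log2(FPKM + 0.1) (adjusted p = 0.0514), and held in the other 16 alternatives.

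Satb1 and Foxp1 were lower in TIM-3+ TILs and did not separate Bcl6+ from DN TILs. Satb1 stood at 55.53 and 61.11 CPM in Bcl6+, 55.05 and 61.63 in DN and 31.61 and 27.67 in TIM-3+ TILs. Foxp1 stood at 285.3 and 291.9, 280.9 and 283.8, and 141.9 and 159.4 CPM. The Bcl6+ and DN values of Satb1 overlapped and those of Foxp1 lay side by side. TIM-3+ TILs were below DN TILs by a log2 change of -0.98 for Satb1 (SE 0.157, adjusted p = 0.000337) and of -0.91 for Foxp1 (SE 0.0812, adjusted p = 1.75e-06). Between Bcl6+ and DN TILs Foxp1 differed by 0.03 (SE 0.08, adjusted p = 0.86), and Satb1 by -0.0004 (SE 0.153, adjusted p = 0.999), a value that changed sign with the scaling.

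Foxo1, the forkhead factor held in check by AKT, had few counts, from 237 to 833 in a TIL library. Its level was 28.31 and 38.54 CPM in Bcl6+, 29.24 and 25.65 in DN and 13.14 and 11.54 in TIM-3+ TILs. The Bcl6+ and DN libraries overlapped, and both lay above TIM-3+. Bcl6+ exceeded TIM-3+ TILs 2.71-fold (log2 1.44, SE 0.23, adjusted p = 0.000203), and TIM-3+ was below DN by -1.15 (SE 0.229, adjusted p = 0.00178). Against DN the Bcl6+ difference was 0.28 (SE 0.222, adjusted p = 0.477).

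Counted together, all 7 genes were lower in TIM-3+ than in DN TILs, where 28.2% of genes tested were called and 13.2% were called lower, with a median of -1.63 against -0.0134 over all genes. The position of the DN cells was tested against the midpoint of the other groups on the log2 scale. Of the 7 genes, 5 lay above that midpoint, Tcf7 by 1.48 (SE 0.0852, adjusted p = 1.5e-07), Lef1 by 0.69, Bach2 by 0.57, Satb1 by 0.49 and Foxp1 by 0.44. In that test 12.7% of genes were called and 6.72% were called higher. Myb lay 0.34 above the midpoint (adjusted p = 0.149) and Foxo1 0.43 above it (adjusted p = 0.178), neither past the threshold. The count was 3 without either DN replicate. Tcf7 and Foxp1 passed in all 18 alternatives run, Lef1 in 17 of 18, Bach2 in 15 of 18 and Satb1 in 10 of 17. In the main edgeR fit Satb1 had an adjusted p of 0.0257. The 3 TIL comparisons and the midpoint test share libraries and are not independent of each other. The macrophage, thymocyte and B cell marker sums given above were lowest in TIM-3+ TILs, as were all 7 genes. The B cell and macrophage sums were also higher in Bcl6+ than in DN TILs, as were Tcf7, Myb and Bach2. Itgam, a macrophage marker, was instead highest in TIM-3+ TILs (5.91 to 7.21 CPM). CD8 T cell marker sums ran the other way. They were 4479 to 4540 CPM in Bcl6+, 5211 to 5214 in DN and 7521 to 7663 in TIM-3+ TILs. The part of these differences in cell markers was not tested.

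**Figure D2:**
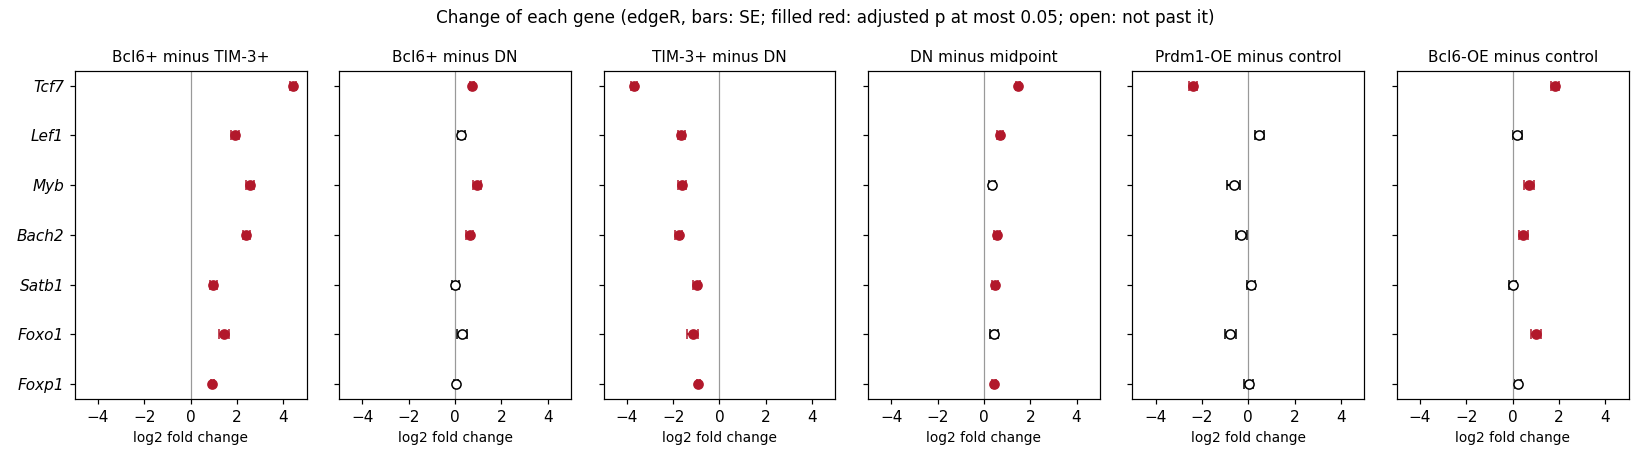
Log2 fold change of each of the 7 genes in 6 comparisons (x axis), with the SE as bars; filled red points passed an adjusted p of 0.05 by edgeR and open points did not. All 7 genes passed in the Bcl6+ against TIM-3+ and TIM-3+ against DN comparisons, 1 passed with Prdm1 overexpression and 4 passed with Bcl6 overexpression. Of all genes tested, 38.6%, 28.2%, 1.36% and 48.8% passed in the same order.

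The Prdm1 experiment compared OT-I cells with added Prdm1 and their co-transferred controls. Tcf7 fell, and it was the 1 gene of the 7 called, in an experiment where 1.36% of 9947 genes tested were called and 0.201% (20 genes) were called lower. Tcf7 stood at 121.7 and 142.6 CPM in the control libraries, and at 26.02 and 24.42 in those with added Prdm1. The groups were far apart. The level was 5.24-fold lower (log2 -2.39, SE 0.192, adjusted p = 0.00591), the rank 6 lowest change of all genes tested. Without control replicate 2 the change was -2.28 and the adjusted p 0.156, and in that fit 3 genes in all were called, against 7 without control replicate 1 and 643 without overexpressing replicate 1. In the other 15 alternatives run Tcf7 kept its call.

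Lef1 went the other way in its values. It stood at 67.38 and 59.45 CPM in the controls, and at 79.45 and 97.34 with added Prdm1. Both overexpressing libraries lay above both controls, but the change of 0.48 did not pass the test (SE 0.194, adjusted p = 0.24). The sign was the same in all 16 alternatives, from 0.25 to 0.62, and none called it.

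Myb and Foxo1 had lower values with added Prdm1 without passing the test. Myb was at 42.96 and 64.61 CPM in the controls, and at 30.38 and 38.87 with added Prdm1 (log2 -0.64, SE 0.266, adjusted p = 0.252). Foxo1 was at 46.14 and 48.93 in the controls, and at 32.7 and 22.83 with added Prdm1 (log2 -0.78, SE 0.248, adjusted p = 0.166). In both cases the groups did not overlap. With 2 libraries a group, here and in the other comparisons, non-overlap alone carries little weight. The smallest two-sided exact permutation p is then 0.333, and the share of all genes without overlap is not given here. With the replicate number as a block both were called lower, Foxo1 with an adjusted p of 0.00957 and Myb with 0.0418, while the count over all genes grew from 135 to 1659. The labels do not say what the replicate numbers mark.

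Bach2, Satb1 and Foxp1 overlapped between these groups. Bach2 was at 53.87 and 73.64 CPM in the controls, and at 47.39 and 56.33 with added Prdm1 (log2 -0.30, SE 0.227, adjusted p = 0.525). Satb1 was at 148 and 170, and 162.3 and 182.3 CPM (log2 0.12, SE 0.164, adjusted p = 0.748). Foxp1 was at 220.6 and 285.1, and 243.6 and 266.4 CPM (log2 0.01, SE 0.178, adjusted p = 0.978). The spread between control replicates was wide for Bach2 and Foxp1, and the common biological coefficient of variation of this experiment, 0.227, was above the 0.149 of the TILs. The sign for Foxp1 depended on the scaling. The median change of the 7 genes was -0.30 against 0.0228 over all genes. Macrophage markers were lower in sum in the overexpressing libraries, but none of 7 tested was called by edgeR. Of these only Cd14 had a higher value (log2 0.25, adjusted p = 0.654). Dendritic cell markers, all 6 listed, summed to 73.8 to 90.61 CPM there against 114.3 to 137.7 in controls, and none of 3 tested was called. Thymocyte markers, all 6 listed, summed to 15.66 to 21.95 CPM against 5.297 to 12.21 in controls, and all were too low to test. The part of these cells in the Tcf7 result was not tested.

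The Bcl6 experiment compared OT-I cells with added Bcl6 and their co-transferred controls. Of the 7 genes, 4 were called higher, Tcf7, Foxo1, Myb and Bach2, in an experiment where 48.8% of 9669 genes tested were called and 25.4% were called higher. The median change of the 7 was 0.46 against 0.00229 over all genes. Tcf7 stood at 75.75 and 77.23 CPM in the controls, and at 267 and 270.2 with added Bcl6. The replicates lay close together within each group, and the level rose 3.51-fold (log2 1.81, SE 0.171, adjusted p = 2.38e-08). In this broad response the change ranked 768 from the highest of all genes tested.

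Foxo1 was the next in size. It stood at 36.45 and 32.86 CPM in the controls, and at 73.58 and 64.91 with added Bcl6. That was a 2-fold rise (log2 0.999, SE 0.201, adjusted p = 0.000363). Tcf7 and Foxo1 kept their calls in all 16 alternatives run. Myb rose from 33.05 and 35.63 to 54.72 and 56.79 CPM (log2 0.70, SE 0.204, adjusted p = 0.00748), and Bach2 from 84.41 and 81.37 to 110.4 and 118 CPM (log2 0.46, SE 0.178, adjusted p = 0.0364). Neither gene overlapped between groups. The call of Bach2 held in 9 of 16 alternatives, and that of Myb in 13 of 15. Without control replicate 1 only Tcf7 and Foxo1 were called.

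Lef1, Satb1 and Foxp1 did not pass the test with added Bcl6. Lef1 was at 57.21 and 56.08 CPM in the controls, and at 62.65 and 67.16 with added Bcl6 (log2 0.20, SE 0.189, adjusted p = 0.409). Satb1 was at 161.8 and 148.1, and 150.5 and 157.6 CPM (log2 -0.01, SE 0.169, adjusted p = 0.974). Foxp1 was at 228.4 and 249, and 275.6 and 276.4 CPM (log2 0.21, SE 0.165, adjusted p = 0.307). The overexpressing values of Lef1 and Foxp1 lay just above the controls and those of Satb1 among them. With the trend of fold change over GC content removed, where 46.9% of all genes were called and 2430 of 9669 were called higher, all 7 genes were called higher, including Lef1 (0.47, adjusted p = 0.0185), Foxp1 (0.55, adjusted p = 0.00308) and Satb1 (0.34, adjusted p = 0.0408). On TPM (FPKM rescaled to the same sum in each library) the median of all genes was -0.321. There the values of Lef1 and Foxp1 were -0.14 and -0.13, and relative to that median they were 0.185 and 0.196. Markers of other cells differed beside these changes. All 7 macrophage markers tested rose with added Bcl6, as their sums above show. Dendritic cell markers, all 6 listed, summed to 101.3 to 114.3 CPM with added Bcl6 against 50.2 to 59.52 in the controls, with 1 of 2 tested higher and 1 lower. Erythroid markers, 5 of 6 listed, summed to 15.56 to 20.88 CPM against 0.9838 to 1.175, with 4 hemoglobin genes at 0 in the controls and 3 of 3 tested higher. Stromal and endothelial markers, all 6 listed, summed to 63.73 to 67.52 CPM against 124 to 133.6, with Sparc at 0 in the overexpressing libraries and 2 of 3 tested lower. Thymocyte markers, 4 of 6 listed, summed to 2.253 to 2.526 CPM against 6.64 to 7.803. CD8 T cell markers summed to 3876 to 4280 CPM against 2017 to 2471, with 3 of 5 higher. The part of these cells in the changes of Tcf7, Foxo1, Myb and Bach2 was not tested.

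Tcf7 was also set against the other 6 genes inside each library, which removes the scaling between libraries. The ratio of Tcf7 to Lef1 in FPKM was 39.96 and 41.25 in Bcl6+, 30.82 and 28.35 in DN and 5.471 and 9.25 in TIM-3+ TILs. With added Prdm1 it went from 5.259 and 6.981 in control to 0.9533 and 0.7302. With added Bcl6 it went from 3.854 and 4.009 to 12.4 and 11.71. Thus Lef1 transcripts outnumbered Tcf7 transcripts per length in the Prdm1-overexpressing libraries, and in no other group. The ratio of Tcf7 to Foxp1 likewise went from 2.277 and 2.513 to 0.4865 and 0.4174 with added Prdm1, and from 1.51 and 1.413 to 4.413 and 4.453 with added Bcl6.

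The ratio to Myb behaved differently within TILs. It was 44.59 and 39.88 in Bcl6+ and 47.54 and 50.58 in DN TILs, so the DN libraries were the higher ones, and it was 12.28 and 11.05 in TIM-3+ TILs. The ratio to Bach2 overlapped between Bcl6+ (25.46 to 27.61) and DN TILs (22.35 to 27.91). With added Bcl6 the ratio of Tcf7 to Foxo1 went from 5.965 and 6.746 to 10.41 and 11.95, the smallest step of the 6 ratios there. No test was run on these ratios, which are given as a description.

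**Figure D3:**
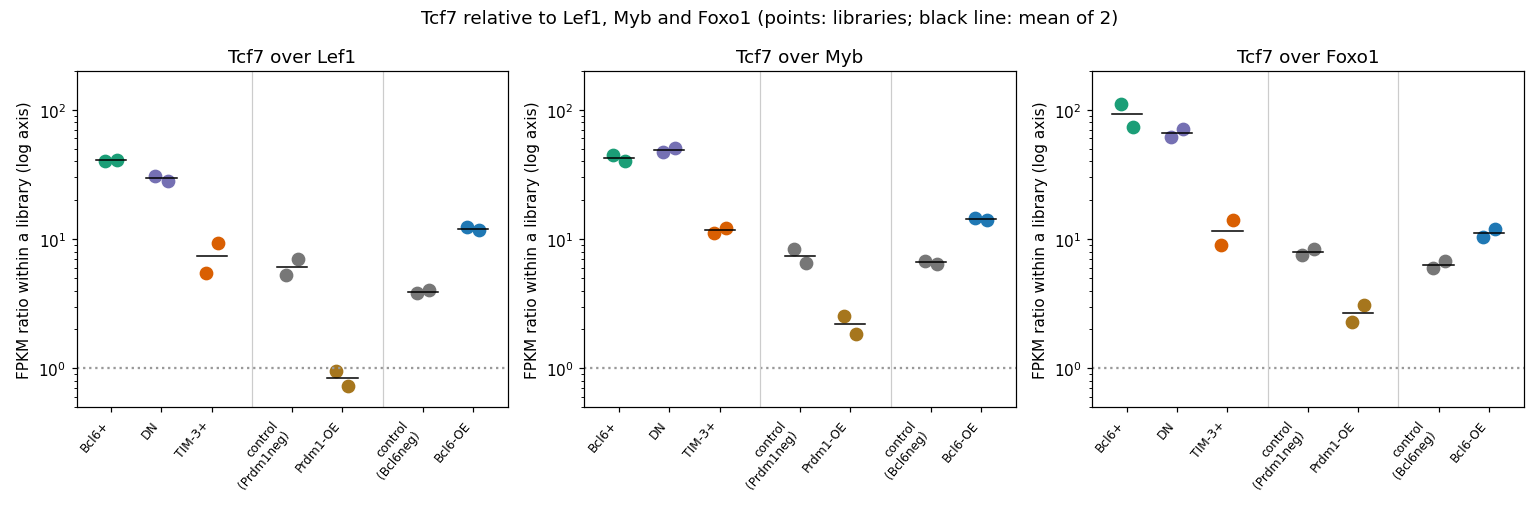
Ratio of Tcf7 to Lef1, Myb and Foxo1 in FPKM within each library, on a log axis; points are libraries, black lines means of 2, the dotted line a ratio of 1. The ratio to Lef1 is 0.7302 and 0.9533 in the Prdm1-overexpressing libraries and above 3.8 in all others.

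Genes of the proteins that TCF-1 and LEF-1 work with formed the list closest to them. Of the TCF-1 and LEF-1 cofactors, 5 of 11 were tested and none was called between Bcl6+ and TIM-3+ TILs by edgeR, and 0 had an unadjusted p under 0.05. Beta-catenin (Ctnnb1) had a value of 0.34 (adjusted p = 0.108). In TIM-3+ against DN TILs, 2 of the 5 were lower, Ctnnb1 by -0.55 (adjusted p = 0.0192) and Tle4, a TLE corepressor, by -0.67 (adjusted p = 0.0231). Over all genes 28.2% were called there and 13.2% were called lower. Tle4 was also lower in Bcl6+ than in DN TILs (-0.75, adjusted p = 0.0212). With added Bcl6, 4 of 6 tested cofactors rose and none fell: Tle5 by 2.79, Tle3 by 1.37, Bcl9l, a beta-catenin adaptor, by 0.87 and Pygo2, its partner, by 0.63. Their median was 0.752, against 0.00229 over all genes, of which 25.4% were called higher. With added Prdm1 none of 6 was called by edgeR, and 2 had an unadjusted p under 0.05.

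Close relatives of the 7 genes were mostly too low to test, 5 of 12 in TILs. Foxp4, a paralog of Foxp1, was higher in Bcl6+ than in TIM-3+ TILs by 1.32 (adjusted p = 0.000843), while Mybl2, the proliferation-linked relative of Myb, was lower by -1.32 (adjusted p = 0.0205). Myb and Mybl2 thus had opposite signs. With added Bcl6, Foxp4 rose by 2.12 and Foxo4 by 1.51, with 5 tested, where 48.8% of all genes were called and 25.4% were called higher. Of the small MAF partners of BACH2, Maff rose by 2.21 with added Bcl6 and Mafk was lower in TIM-3+ than in DN TILs by -0.57 (adjusted p = 0.045).

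Among genes that set the Wnt signal ahead of TCF-1 and LEF-1, 9 of 13 were tested in TILs. Rnf43 and Znrf3 encode ubiquitin ligases that remove Wnt receptors and are themselves Wnt-responsive. They were higher in Bcl6+ than in TIM-3+ TILs, by 1.22 (adjusted p = 0.000347) and 0.67 (adjusted p = 0.0146), and none was lower. That was 2 of 9 called higher, near the 19.1% called higher over all genes, of which 38.6% were called. Rnf43 was also higher in Bcl6+ than in DN TILs, by 1.08 (adjusted p = 0.00245). With added Bcl6, 1 of 9 rose, the kinase gene Gsk3a by 1.16, and 3 fell, Znrf3 by 0.87, Csnk1a1 by 0.57 and Gsk3b by 0.56. That share is near the 48.8% called over all genes. With added Prdm1 none of 8 was called by edgeR, and 1 had an unadjusted p under 0.05.

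Genes of the PI3K and AKT pathway, which restrains FOXO1, were called in both directions. In Bcl6+ against TIM-3+ TILs, 5 of 19 were higher and 4 lower, near the 38.6% called over all genes, with a median of -0.0148. Pik3ip1, an inhibitor of PI3K, was higher by 2.71 (adjusted p = 8.69e-08) and the regulatory subunit gene Pik3r2 by 2.35, whereas the catalytic subunit genes Pik3cg and Pik3cd were lower by -1.26 and -0.59. In TIM-3+ against DN TILs 3 of 19 were higher and 2 lower, near the 28.2% called over all genes. Among them were Pik3ip1 at -2.03 and Pik3cg at 1.09. With added Bcl6, 3 of 19 rose and 4 fell, where 48.8% of all genes were called, with Pik3cg at -1.15 (adjusted p = 4.43e-05) and Akt1 at 0.77 (adjusted p = 0.00201). With added Prdm1 none of 19 was called by edgeR, and 4 had an unadjusted p under 0.05.

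Known targets of FOXO1 include receptors for homing and survival. In Bcl6+ against TIM-3+ TILs 7 of 9 were higher and 1 lower, with a median of 1.06. Over all genes 38.6% were called there and 19.1% were called higher. The lymph node homing receptor Ccr7 was higher by 4.01, the IL-7 receptor chain gene Il7r by 1.84 and Irs2 by 2.63, and Bcl2l11, which encodes the death factor BIM, was lower by -1.22. In TIM-3+ against DN TILs 7 were lower and 1 higher, where 28.2% of all genes were called and 13.2% were called lower. In Bcl6+ against DN TILs, where Foxo1 was not called, 2 were higher and 2 lower. Over all genes 14.2% were called there and 6.49% were called higher. Ccr7 was higher by 0.95 and Irs2 by 1.59, and S1pr1, the egress receptor gene, was lower by -2.16 and Bcl2l11 by -0.62. With added Bcl6, 4 of 9 rose and 2 fell, where 48.8% of all genes were called and 25.4% were called higher. Klf2 rose by 2.23, Cdkn1b by 1.87 and Irs2 by 1.53, while S1pr1 fell by 0.88. With added Prdm1, 2 of 9 were called, both lower, among them Ccr7, which fell by 0.97 (adjusted p = 0.0362). Of all genes 1.36% were called there and 0.201% were called lower.

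Genes known from the TCF-1+ progenitor state formed another list. It holds Bcl6, which was the sort marker of the TILs and the gene added in 1 experiment, so its place there is no result. The counts and medians below include Bcl6 where it was tested, so they are partly set by the sort or by the added gene. In Bcl6+ against TIM-3+ TILs 7 of 8 tested were higher and none lower, with a median of 4.36. Over all genes 38.6% were called there and 19.1% were called higher. Among the 7 were the follicular homing receptor Cxcr5 by 7.09, Slamf6 by 4.25 and Tnfsf8 by 4.48. Against DN TILs 6 of 8 were higher, among them Cxcr5 by 2.22, Eomes by 0.97 and Slamf6 by 0.85. Over all genes 14.2% were called there and 6.49% were called higher. With added Bcl6, 5 of 8 rose, among them the chemokine gene Xcl1 by 4.69, Id3 by 3.74 and Cxcr5 by 4.10. Of all genes 48.8% were called there and 25.4% were called higher. With added Prdm1, where 1.36% of all genes were called and 0.201% were called lower, 1 of 7 was called. Slamf6 fell by 1.31 (adjusted p = 0.0225). The median of the list was -1.12, against 0.0228 over all genes. There Eomes stood at -1.12 (adjusted p = 0.0539) and Xcl1 at -1.65 (adjusted p = 0.0806).

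Other transcription factors of naive and memory T cells were mixed. In Bcl6+ against TIM-3+ TILs 4 of 10 were higher, with Id3 at 5.997 and Zeb1 at 0.65, and 2 lower, Ets1 at -0.45 and Ikzf1 at -0.30. Over all genes 38.6% were called there and 19.1% were called higher. With added Bcl6, 4 of 9 rose, including Klf2 and Bcl11b (1.19), and 2 fell, Ets1 by 1.31 and Gata3, where 48.8% of all genes were called and 25.4% were called higher. With added Prdm1 none of 9 was called by edgeR, and 4 had an unadjusted p under 0.05.

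**Figure D4:**
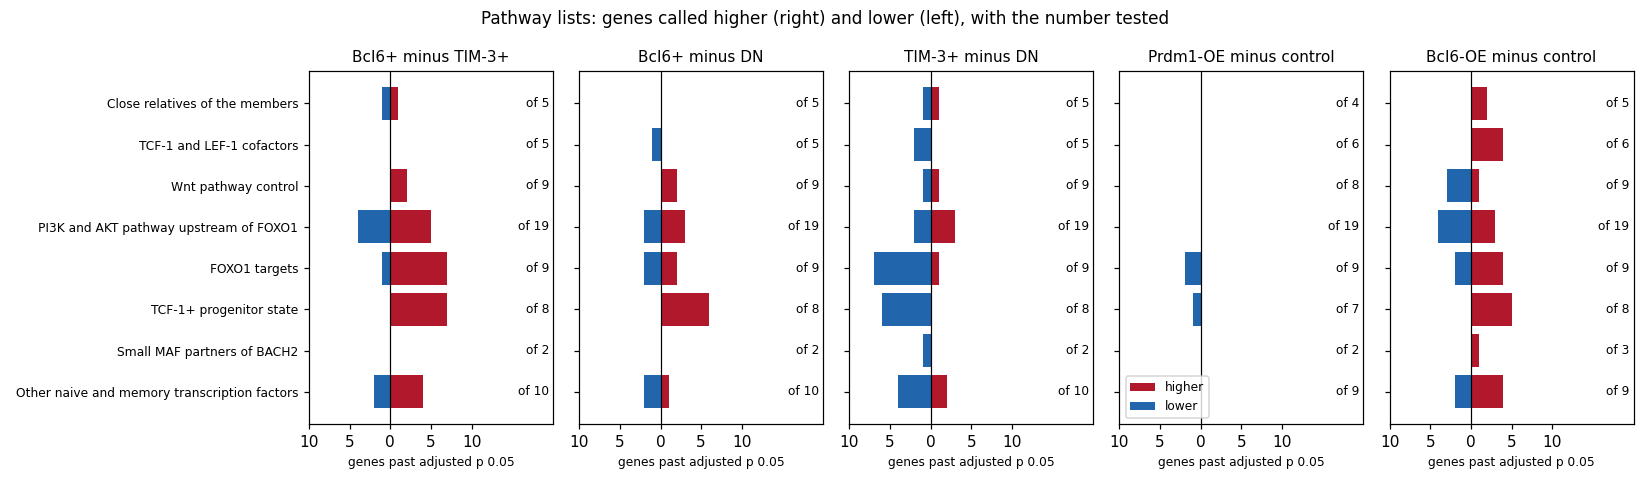
Number of genes of each pathway list called higher (red, to the right) and lower (blue, to the left) in 5 comparisons, with the number tested at the right edge of each panel. FOXO1 targets show 7 of 9 higher in Bcl6+ against TIM-3+ TILs, where 19.1% of all genes tested were called higher. In TIM-3+ against DN TILs 7 of 9 are lower, where 13.2% were called lower. With Prdm1 overexpression, where 1.36% of all genes were called, 3 genes are called in all lists.

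To see which transcripts ran most like each of the 7, every gene with a mean of at least 5 FPKM in each experiment was compared with it over the 14 libraries, by the root mean square distance of log2 values centred within each experiment (at least 5455 genes compared). The measure is a description, since all genes share the same libraries. Slamf6 was nearest to Tcf7, at 0.383 log2 units, followed by Cd74 (0.42), the invariant chain gene of antigen presentation, and Ccr7 (0.56). Myb was nearest to Etv6 (0.15) and then to Bach2 (0.166). Myb, Satb1 and Foxo1 fell short of a mean of 5 FPKM in TILs, so they were not candidates for the other genes. Among the candidates Bach2 was nearest to Ssh2, Etv6 and Jak2 (0.202 to 0.254), but Myb lay nearer to it, at 0.166. Satb1 was nearest to Foxp1 (0.115). Lef1 was nearest to Btla (0.205), an inhibitory receptor gene, and Tcf7 and Lef1 lay 1.14 apart. Foxo1 was nearest to Mrpl38, Ddit4 and Evl, and Foxp1, among the candidates, to Scpep1, Akap8l and Anks3. Satb1, not a candidate, lay 0.115 from Foxp1, between Akap8l (0.114) and Anks3 (0.119). With TIL libraries alone Slamf6 stayed among the 3 nearest to Tcf7 and Etv6 among those to Myb, and none of the 3 stayed for the other 5 genes. Ranked by 1 minus the Pearson correlation in place of distance, Tcf7 and Myb kept 2 of their 3, Lef1, Bach2 and Foxp1 kept 1, and Satb1 and Foxo1 kept 0, so that Foxp1 was no longer among the 3 nearest to Satb1.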

How the data were processed

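Each gene had 2 deposited values per library, labelled Count and FPKM in the file headers; the authors' counts were whole numbers. Tools listed in the submitters' processing notes were Bowtie2, Subread and featureCounts, then edgeR with DESeq2, for TILs, and HISAT2, RSEM, featureCounts and DESeq2 for OT-I cells, with mm10. Their versions and roles are not given. Experiments were therefore compared only within themselves.

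Counts were tested with the quasi-likelihood test of edgeR 4.0.16 in R 4.3.3 (TMM scaling), two-sided, keeping genes whose mean FPKM across the fitted libraries reached 1, with Benjamini-Hochberg adjustment over all of them at 0.05. The 6 TIL libraries shared 1 fit and each set of 4 OT-I libraries another. Standard errors were derived from the F statistic, as the size of the log2 change divided by its square root. The script was tested on simulated data. Alternatives were other scalings, limma 3.58.1 on log2(FPKM + 1) and with 0.1 in place of 1, DESeq2 1.42.0, other filters, a replicate block, GC and length trends removed, only the groups compared, and each replicate left out; limma on log2(TPM + 1) was added after the data were seen.

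The 7 genes, the pathway lists and the marker lists were chosen with earlier results of these data known. Named genes were the 7, up to 4 called genes with the smallest p per list and comparison, the 3 nearest genes, and Bcl6, Prdm1 and Havcr2; a few further list members, such as Bcl2l11, Gata3 and the uncalled Ctnnb1, Eomes and Xcl1, were named after their values were seen. Klf2 and Id3 stand in 2 lists each. Replicates differed by more than counting noise. Gene positions came from GENCODE M21 and window sequences from RefSeq. Some members of the pathway and marker lists are counted but not reported by name here.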

Additional observations from a re-analysis of the deposited data

How the results depend on the processing

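With 2 libraries a group, depth was not the limit: the 7 genes had 227 or more counts in every library, and the spread between replicates sets the precision. All changes of the 7 genes in Bcl6+ against TIM-3+ TILs (130 values over 19 alternatives) and in TIM-3+ against DN TILs (130) kept their sign and call. With a mean of at least 5 FPKM only 4 of the 7 were tested in TILs, and 4 were called in each of these comparisons. Above the midpoint, DN TILs had 3 called genes with limma at either pseudocount and 3 to 5 with a replicate left out. With Prdm1 added, the number called was 3 under the replicate block and 0 to 1 with a replicate left out. With Bcl6 added it was 7 with the GC trend removed, 2 on TPM, and 2 to 4 with a replicate left out. The causes were not tested.

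Small uncalled changes changed sign. Satb1 in Bcl6+ against DN TILs was 0.00149 with DESeq2 size factors and with the DESeq2 test, 0.0164 with total counts, 0.0701 on TPM and from -0.0767 to 0.0827 with a replicate left out (0.0678 without Bcl6+ replicate 1), and Foxp1 was -0.0385 with the length trend removed. With Prdm1 added, Foxp1 was -0.0315 with DESeq2 size factors and test, -0.089 with total counts, -0.0139 with the upper quartile, -0.0748 and -0.0781 with limma, -0.147 with no filter, -0.0113 and -0.134 with the length and GC trends removed, -0.0329 on TPM and from -0.165 to 0.205 with a replicate left out. Satb1 was -0.0423 with no filter, -0.0317 with the GC trend removed and from -0.0422 to 0.216 with a replicate left out. With Bcl6 added, Satb1 was 0.0701 and 0.0782 with limma, 0.0964 with no filter, 0.0664 and 0.341 with the length and GC trends removed and from -0.0795 to 0.0512 with a replicate left out, and Lef1 and Foxp1 were -0.136 and -0.126 on TPM.

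Scaling moved the split of all genes called. In Bcl6+ against TIM-3+ TILs it was 1857 higher and 1907 lower, against 2896 and 1283 with total counts and 3455 and 1123 on TPM (medians of all genes 0.192 and 0.259). In TIM-3+ against DN TILs it was 1454 and 1291, against 869 and 2173 with total counts and 819 and 2275 on TPM (medians -0.177 and -0.193). For the midpoint it was 655 and 584, against 929 and 365 with total counts and 820 and 354 on TPM. With Bcl6 added it was 2459 and 2261, against 1741 and 3784 on TPM. With Prdm1 added it was 115 and 20, against 191 and 84 with DESeq2 size factors, 171 and 121 with total counts, 176 and 60 with the upper quartile and 340 and 269 on TPM, and the total ran from 3 without control replicate 2 to 1659 with the block. Total calls with 1 DN replicate left out were 735 to 766 for Bcl6+ against DN, 1696 to 1734 for TIM-3+ against DN and 443 to 452 for the midpoint, from 1383, 2745 and 1239. Deviations of same-numbered replicates correlated at 0.024, 0.00067 and 0.032 in TILs, 0.32 with Prdm1 added and -0.064 with Bcl6 added; the labels give no shared animal, so the fits were unpaired. Under the replicate block the count of the 7 genes called stayed at 7, 3, 7 and 5 in the TIL comparisons and was 3 with Bcl6 added, where Bach2 had an adjusted p of 0.0552.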
